A study of Mus musculus with 6 samples.

Results

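The cells described here are the Day 10 cells of the digits in a dish (DID) cultures that carried at least 20 unique molecular identifiers (UMIs) of Ibsp and at least 1 UMI of Ifitm5. They numbered 393 of the 16707 Day 10 cells that passed the cell filter, with 158 of 8350 in replicate A and 235 of 8357 in replicate B. The DID cultures were grown from wild-type distal forelimb mesenchyme that was dissected and pooled from E11.5 embryos of CD-1 mice and plated at high density, with no treatment in any group. Droplet libraries of RNA 3' ends were made from 2 independent cultures at each of Day 2, Day 7 and Day 10, 6 libraries in all, and 54126 cells of the series passed the same filter of at least 3000 UMIs, at most 7500 detected genes and at most 25% of UMIs from mitochondrial genes. The rule read the Ibsp and Ifitm5 counts themselves, so the levels of these genes are given as a description and were not tested. Each test below compares sums of UMIs from 2 cultures, with the library as a covariate. Its p-value therefore sets the difference between classes against a spread across 2 libraries that was in large part pooled over genes.

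Ibsp encodes bone sialoprotein, an acidic phosphoprotein of mineralizing matrix and a member of the SIBLING family, whose genes lie side by side in the mouse genome. Ifitm5 encodes a small membrane protein of osteoblasts and, unlike its relatives among the interferon-induced transmembrane genes, is known for bone and not for antiviral defence. In the embryonic digit, bone matrix is laid down by osteoblasts of the perichondrium and around cartilage whose chondrocytes have become hypertrophic, and late hypertrophic chondrocytes can also make Ibsp. The third gene given as a marker of these cells, Hs3st6, encodes a 3-O-sulfotransferase of heparan sulfate and played no part in the rule. It was given as a marker with earlier results of these data known, so its levels are a description and not independent support.

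Ibsp lies on the forward strand at chr5:104299171-104311469 (GRCm38), Ifitm5 on the reverse strand at chr7:140948958-140950291, and Hs3st6 on the forward strand at chr17:24752988-24758684, all annotated as protein-coding genes. Ibsp has the SIBLING genes Dmp1 (chr5:104202613-104214102), Mepe (chr5:104325329-104338611) and Spp1 (chr5:104435118-104441050) as neighbours. The RefSeq promoter windows (GRCm38.p6) of the genes of the rule, and of both SIBLING genes that were higher in these cells, are shown so that the stretch next to each gene start can be read beside the levels below. Each window was kept to the bases upstream of the start that no annotated exon covers, and is given 5′ to 3′ on the strand of the gene.
Ibsp, chr5:104299037-104299170, forward strand: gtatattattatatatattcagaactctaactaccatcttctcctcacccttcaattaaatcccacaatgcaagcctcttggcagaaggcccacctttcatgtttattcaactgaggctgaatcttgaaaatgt
Ifitm5, chr7:140950292-140950493, reverse strand: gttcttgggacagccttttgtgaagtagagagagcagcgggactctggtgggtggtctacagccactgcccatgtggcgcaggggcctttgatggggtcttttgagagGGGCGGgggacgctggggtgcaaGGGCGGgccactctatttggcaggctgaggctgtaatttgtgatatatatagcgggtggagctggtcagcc
Dmp1, chr5:104202367-104202612, forward strand: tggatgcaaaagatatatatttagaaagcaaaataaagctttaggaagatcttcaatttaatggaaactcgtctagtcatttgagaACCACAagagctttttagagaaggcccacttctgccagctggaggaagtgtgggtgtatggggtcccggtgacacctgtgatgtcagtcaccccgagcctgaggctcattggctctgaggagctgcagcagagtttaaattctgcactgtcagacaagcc
Mepe, chr5:104325079-104325328, forward strand: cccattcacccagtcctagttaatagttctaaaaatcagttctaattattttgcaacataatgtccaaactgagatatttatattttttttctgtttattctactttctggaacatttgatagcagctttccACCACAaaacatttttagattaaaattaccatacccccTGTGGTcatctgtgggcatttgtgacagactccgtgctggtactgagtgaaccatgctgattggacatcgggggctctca
Capitals mark the GC box GGGCGG and the RUNX core TGTGGT, each searched on both strands, and the motifs do not overlap in these windows. The Mepe window held the RUNX core once on each strand, and the Dmp1 window held it once on the opposite strand. The RUNX core was present in 14.0% of the 32851 RefSeq promoter windows over the stretch shown for Mepe and in 13.9% over that of Dmp1. The Ifitm5 window held the GC box at 142 and at 119 bases before the RefSeq start, which differs from the annotated gene start given above and lies 49 bases past the last base shown, and 25% of promoters held it in the same stretch. Neither motif was found in the Ibsp window, which is 134 bases long and ends 117 bases before the RefSeq start. The bases nearest that start were thus not searched for Ibsp. These matches describe the letters of the windows and were not related to the expression values.

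Ibsp in the chosen cells ranged from 20 to 3716 UMIs per cell in replicate A, with a median of 255.5, and from 21 to 5864 in replicate B, with a median of 237.0. Ifitm5 ranged from 1 to 199 UMIs with a median of 21.5 in replicate A, and from 1 to 144 with a median of 21.0 in replicate B. Summed over the cells, Ibsp made up 18842.6 and 19176.5 counts per 1000000 UMIs (CPM) in replicates A and B and Ifitm5 821.9 and 814.1 CPM, so that both libraries gave close levels. The border of the rule on the Ibsp side was thinly filled. In replicate A, 7 cells with 20 to 29 Ibsp UMIs lay just inside it and 9 cells with 10 to 19 Ibsp UMIs and an Ifitm5 UMI just outside, and in replicate B these were 15 and 15 cells. The border on the Ifitm5 side was crowded, with 17 and 28 chosen cells at exactly 1 Ifitm5 UMI against 138 and 146 cells that had at least 20 Ibsp UMIs and no Ifitm5 UMI. Among cells with fewer than 20 Ibsp UMIs, 188 and 219 had an Ifitm5 UMI, with a median of 1 UMI, and only 1 and 6 of them reached 10 UMIs.

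**Figure D1:**
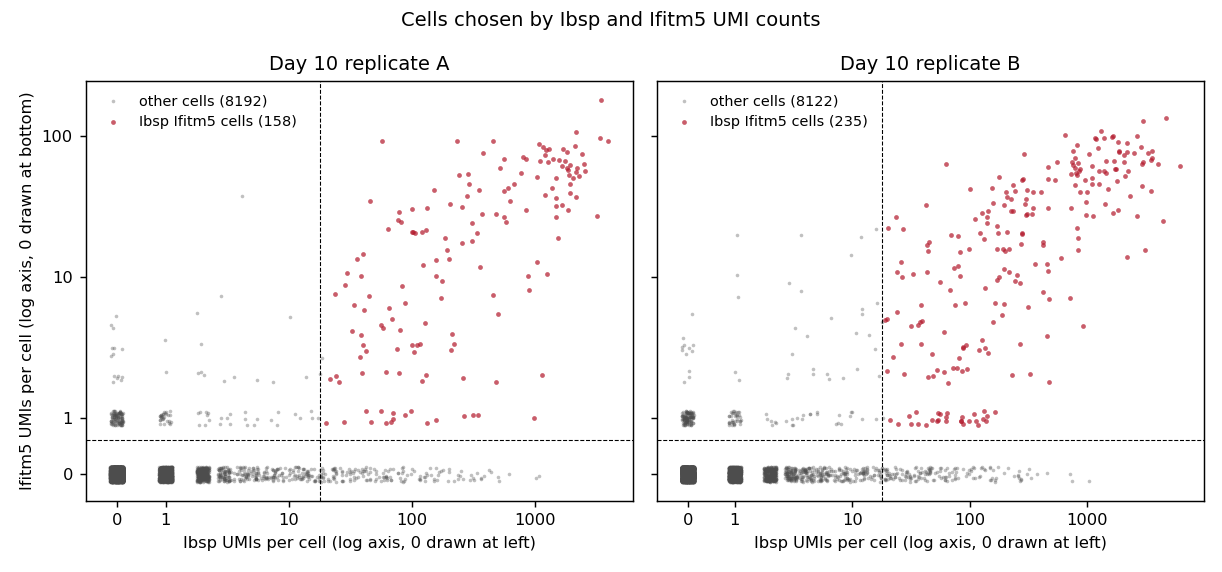
Ibsp UMIs (x axis) and Ifitm5 UMIs (y axis) of every Day 10 cell, one panel per replicate, on log axes with 0 drawn at the edge and points shifted slightly at random. Dashed lines are the limits of the rule, and the 158 and 235 chosen cells (red) form one cloud, whose median Ibsp count is 80.5 and 72 UMIs at 1 to 3 Ifitm5 UMIs and 1558 and 1396 at 50 or more.

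Under this rule the cells were found almost only at Day 10. They made up 1.89% of the cells in Day 10 replicate A (exact binomial 95% interval 1.61% to 2.21%) and 2.81% in replicate B (2.47% to 3.19%), intervals that cover counting error only and do not overlap. With the study's own cell filter in place of this one, the shares lay closer together. They were then 1.53% (159 of 10388) in replicate A and 1.91% (190 of 9949) in replicate B, so the difference between replicates depended on the filter. At Day 7 the rule found 0 of 9355 cells, which by a floor of 3 counts allows a share of up to 0.0321%, and 1 of 9373 cells in replicates A and B, and at Day 2 it found 0 of 8949 and 0 of 9742 cells, which allow up to 0.0335% and 0.0308% by the same floor. Cells with 20 or more Ibsp UMIs were 296 and 381 in the Day 10 libraries, but 4 and 12 in those of Day 7 and 0 and 1 in those of Day 2. The Ibsp level of whole libraries went from 0.0872 and 0.294 CPM (Day 2) through 3.25 and 4.93 (Day 7) to 510.0 and 750.7 (Day 10). That of Ifitm5 went from 0.213 and 0.306 through 0.183 and 0.229 to 19.8 and 30.3 CPM, and Hs3st6 moved from 0.325 and 0.396 through 0.0817 and 0.0797 to 1.99 and 3.06 CPM. In such library sums, more cells and more RNA per cell cannot be told apart. The median depth of passing cells also differed by day, from 19463 and 12899 UMIs (Day 2) through 19537 and 18350 (Day 7) to 29354 and 27884 (Day 10). With the Ibsp limit scaled to the depth of each cell, the rule found 151 and 213 cells in the Day 10 libraries, 0 and 1 in those of Day 7, and 0 in either of Day 2. A comparison of these cells between Day 10 and Day 7 was not possible with so few at Day 7.

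The chosen cells were somewhat deeper than the remaining Day 10 cells, with a median of 35550.5 and 33927 UMIs against 29187.5 and 27627, and their mitochondrial share was similar, with medians of 3.17% and 2.77% against 3.65% and 3.15%. Their share of UMIs from ribosomal protein genes was higher, with medians of 30.8% and 31.5% against 26.2% and 26.5%. The 2 Day 10 libraries shared 40 barcodes, of which 0 and 1 belonged to chosen cells. Doublets were not called. Markers of other lineages were low in the chosen cells, where the macrophage gene Tyrobp had 0.346 and 7.99 CPM and the tendon gene Tnmd 2.08 and 3.24 CPM. A Tyrobp UMI was found in 1.27% and 5.96% of the chosen cells against 3.3% and 4.44% of the other cells. In replicate B it was thus not rarer, and DESeq2 did not call Tyrobp lower (adjusted p = 0.059). The 12 macrophage and osteoclast markers summed to 36.9 and 77.3 CPM against 165.1 and 227.3 in the other cells, the 7 endothelial markers to 7.45 and 9.61 against 19.5 and 20.8, and the 7 muscle markers to 18.7 and 15.3 against 25.6 and 39.6. The endothelial genes Cdh5, Tek, Emcn and Cldn5 and the muscle factor Myod1 were at 0 UMIs in the chosen cells. Of the 8 SIBLING and IFITM genes other than Ibsp and Ifitm5, Dspp was at 0 UMIs in the chosen cells of both libraries.

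The label of bone-matrix cells was checked against osteoblast markers by the share of cells with a UMI, and against free RNA by the same share in Tnmd cells (at least 3 Tnmd UMIs, 653 and 555 cells with median depths of 32457 and 31246 UMIs), which should lack them. A Sp7 UMI was found in 96.8% and 95.7% of the chosen cells against 15.5% and 15.9% of the Tnmd cells, and Alpl in 99.4% and 100% against 35.1% and 32.8%. After each cell was thinned to 3000 UMIs, Sp7 was found in 43.7% and 38.3% against 2.45% and 2.52%. With all UMIs, Runx2 was found in 92.4% and 92.8% of the chosen cells against 66.2% and 67.0%, so most Tnmd cells carried it too. The osteoblast markers Col1a1 and Spp1 were read by level only. Against all other cells, Col1a1 was higher in the chosen cells and Spp1 lower, as given below. Markers of later osteoblasts and osteocytes were carried by fewer cells. Bglap was found in 32.9% and 38.3% of the chosen cells, Bglap2 in 38.6% and 43.4%, Dmp1, whose share was close to background, in 10.8% and 9.36% and Mepe in 4.43% and 4.26%, against 1.53% and 2.70%, 1.68% and 3.96%, 6.58% and 4.86%, and 0 of 653 and 0 of 555 in the Tnmd cells. Phex was found in 13.9% and 10.2% against 8.73% and 11.9%, which is at background. Ifitm5 itself was found in 1.99% and 3.06% of the Tnmd cells, and the chosen cells with a single Ifitm5 UMI cannot be told apart from such background by Ifitm5 alone. Hs3st6, which was given as a marker of these cells and so is no check of the label, was found in 50% and 52.3% of them. In the Tnmd cells it was found in 0.459% and 0.180%. The cells with at least 20 Ibsp UMIs and no Ifitm5 UMI carried several of these markers too. Among them Alpl was found in 99.3% and 95.9%, Runx2 in 94.2% and 97.3%, Bglap in 30.4% and 34.2% and Bglap2 in 32.6% and 35.6%. These shares are close to those of the chosen cells and do not tell the classes apart. Sp7 was found in 79.7% and 76.0% of them and Hs3st6 in 5.8% and 4.79%.

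The first comparison set the sums of the chosen cells against those of all other cells of the same library. In the chosen cells, the bone regulators Dlx3 and Sp7 and the collagens Col13a1 and Col22a1 were far above the other cells in both libraries. So were the mineralization genes Alpl and Smpd3 and the hedgehog target Hhip. Not all genes of these kinds rose. Of 16 mineralization and phosphate genes 5 were higher and 10 lower, and of 17 bone matrix genes 11 and 5. Of 13 hypertrophic genes, 9 were higher and 2 lower. The chosen cells were low in the joint lubricin gene Prg4, the tendon gene Tnmd and contractile genes. With edgeR's quasi-likelihood test, 2825 of 16710 genes were higher (16.9%) and 3691 lower (22.1%) at a Benjamini-Hochberg adjusted p under 0.05. Of these, 665 were higher (3.98%) and 1579 lower (9.45%) by at least 2-fold. The counts of every gene list in this comparison are to be read beside these shares over all genes. The fit had 1 residual degree of freedom and 1360 prior degrees of freedom, so the spread of each gene was taken almost wholly from all genes, and calls of small size rest on that. A gene that goes with Ibsp or Ifitm5 from cell to cell had to differ here. The test says only that the difference was large beside a spread pooled over genes, not beside the gene's own spread between libraries. The SE given with each log2 fold change comes from the same test and rests on that pooled spread too. It does not show how far the 2 libraries lay apart, which is read from the CPM of each library. Ihh, Mki67 and Top2a were called higher although each was slightly lower in replicate B in CPM. The CPM carry none of the normalization factors that enter the log2 fold changes, so these small differences are not on the tested scale.

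Hs3st6 stood at 75 and 72.6 CPM in the chosen cells and at 0.294 and 0.523 in the other cells, 254.8-fold and 138.9-fold higher. Among the tested genes other than this marker, the largest log2 fold change was that of Col13a1, a transmembrane collagen, at 92.5 and 104.7 against 0.552 and 0.767 CPM (log2 fold change 7.37 ± 0.12, SE). Col22a1, a collagen of tissue junctions, had 50.1 and 45.4 against 1.02 and 0.995 CPM (5.70 ± 0.17). In each of these genes the chosen cells of both libraries lay far above the other cells. Slc13a5, a plasma membrane citrate transporter, had 205.4 and 187.2 against 4.10 and 4.57 CPM (5.64 ± 0.07). The receptor-type phosphatase gene Ptprz1 had 88.7 and 75.4 against 2.19 and 2.96 CPM (5.13 ± 0.11), and the sphingosine 1-phosphate exporter gene Spns2 had 41.6 and 43.1 against 1.22 and 1.43 CPM (5.14 ± 0.17). Rerg (5.68 ± 0.26), Rasgrp2 (5.28 ± 0.20), Smagp (4.71 ± 0.19) and Insc (4.65 ± 0.14) were also among the 15 highest genes with a mean of at least 20 CPM in the higher class, each with similar levels in both libraries. Cryba2, a crystallin gene, was also among them, at 30 and 19.9 against 0.875 and 0.152 CPM, but it was found in only 14.6% and 9.36% of the chosen cells, and 1 cell held 27.2% and 25% of its UMIs among the chosen cells of each library. Leaving out Hs3st6, the adjusted p-values of the 15 highest and 10 lowest genes with at least 20 CPM were all at or under 2.2e-51.

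**Figure D2:**
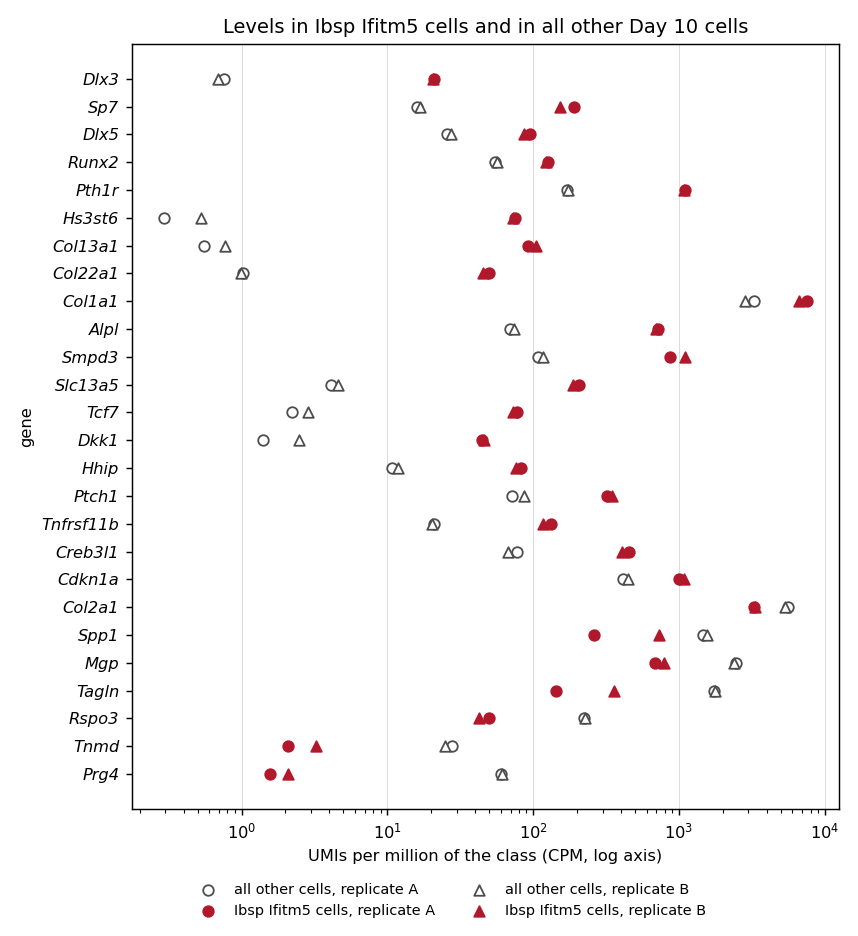
Level in CPM (log axis) of 26 genes in the chosen cells (red) and in all other Day 10 cells (open), with circles for replicate A and triangles for replicate B. The replicates of a class lie close together, with Spp1 (260.0 and 729.0 CPM in the chosen cells) and Tagln (144.3 and 361.0 CPM) the widest apart.

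Of the 11 osteoblast regulators, 9 were higher and 2 lower, 8 and 1 of them by at least 2-fold, with a median log2 fold change of 1.92 against -0.08 over all genes tested. Dlx3, a homeobox factor of bone and tooth, had 21.0 and 20.7 CPM in the chosen cells against 0.758 and 0.691 (4.99 ± 0.22). Sp7, the zinc finger factor that osteoblasts need, had 191.4 and 152.5 against 15.9 and 16.8 CPM (3.52 ± 0.06). Other regulators are also known from cartilage. Dlx5 had 95.4 and 86.5 against 25.6 and 27.3 CPM (1.92 ± 0.07), and Runx2, the master regulator of bone that is also made by maturing chondrocytes, 127.3 and 122.6 against 54.4 and 56.7 CPM (1.31 ± 0.06). Pth1r, the receptor for PTH and PTHrP, had 1103.9 and 1077.0 against 169.8 and 173.8 CPM (2.81 ± 0.04). Msx2, a homeobox gene of BMP-responsive mesenchyme, was the member that fell by over 2-fold, at 3.12 and 2.55 against 14.0 and 14.4 CPM (-2.21 ± 0.20).

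Of the 17 bone matrix genes, 11 were higher and 5 lower, 8 and 3 by at least 2-fold, with a median of 0.97. Among them, Col1a1 of type I collagen had 7517.0 and 6622.6 CPM in the chosen cells against 3264.2 and 2833.2 (1.36 ± 0.03), Col1a2 7241.9 and 6773.4 against 3715.5 and 3406.4 (1.12 ± 0.03), and Col5a1 586.6 and 544.3 against 261.7 and 239.4 (1.32 ± 0.04). Col24a1, a minor fibril collagen of bone, had 19.4 and 15.1 against 0.814 and 0.826 CPM (4.52 ± 0.23). The osteocalcin genes Bglap (87.1 and 64.6 against 4.08 and 3.99 CPM) and Bglap2 (136.0 and 86.4 against 5.63 and 6.42) were higher too, but these are near-identical copies whose reads may have been split or lost in counting, and 1 cell held 16.5% and 17.2% of the Bglap UMIs of the chosen cells. Other matrix genes were lower. Mgp, an inhibitor of calcification, had 688.4 and 789.6 against 2479.5 and 2373.1 CPM (-1.57 ± 0.03), and the proteoglycan gene Bgn 613.8 and 597.4 against 1473.5 and 1336.2 CPM (-1.07 ± 0.04).

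The SIBLING genes next to Ibsp did not move as one. Spp1, osteopontin, had 260.0 and 729.0 CPM in the chosen cells against 1469.5 and 1557.7 in the other cells (-1.59 ± 0.04), so that both libraries were below, replicate A much further than replicate B. Dmp1, a phosphoprotein of osteocytes, had 17.5 and 43.1 against 3.27 and 3.86 CPM (3.19 ± 0.14), and Mepe 8.66 and 1.39 against 0.0524 and 0.0590 CPM (6.31 ± 0.63). Both rested on few cells, since 1 cell of replicate B held 56.5% of the Dmp1 UMIs and 1 cell of replicate A held 36.0% of the Mepe UMIs. The relatives of Ifitm5 that respond to interferon moved in both directions. Ifitm2 had 739.0 and 718.7 against 594.9 and 571.4 CPM (0.47 ± 0.04), Ifitm1 7.10 and 7.06 against 2.76 and 3.66 (1.27 ± 0.21), a call lost on thinning (adjusted p = 0.79 by edgeR), and Ifitm3 was lower at 363.9 and 393.2 against 604.5 and 577.2 (-0.50 ± 0.04). With no limit on Ifitm5 the call of Ifitm2 was lost, at a log2 fold change of 0.02 (adjusted p = 0.77 by edgeR). Of the 8 osteocyte genes tested, 5 were higher and 2 lower. The higher were Dkk1, Dmp1 and Mepe, the near-absent Sost, and Phex, whose call was lost when cells were thinned to 3000 UMIs (adjusted p = 0.46 by edgeR). The osteocyte WNT inhibitor Sost was close to absent, at 0.520 and 2.43 CPM in the chosen cells, with a UMI in 1.27% and 2.55% of them.

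Of the 16 mineralization and phosphate genes, 5 were higher and 10 lower, 5 and 4 by at least 2-fold, with a median of -0.45. Alpl, the tissue-nonspecific alkaline phosphatase, had 718.5 and 701.9 against 69.6 and 74.2 CPM (3.45 ± 0.05), Smpd3, a sphingomyelinase needed for bone mineral, 862.1 and 1099.4 against 108.3 and 117.4 (3.26 ± 0.04), and Phospho1, a phosphatase of matrix vesicles, 4.85 and 3.24 against 0.488 and 0.498 (3.15 ± 0.38). Among the lower genes, Enpp1, which makes the mineral inhibitor pyrophosphate, had 3.98 and 4.75 against 10.2 and 11.1 CPM (-1.13 ± 0.18), and Ank, which exports it, 8.66 and 13.7 against 23.9 and 23.3 CPM (-0.88 ± 0.12). Both lower calls were lost when cells were thinned to 3000 UMIs, with adjusted p-values of 0.67 and 0.17 by the same edgeR test.

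The hypertrophic and the cartilage genes moved apart from each other. Of the 13 genes of the hypertrophic list, 9 were higher and 2 lower, 8 and 0 by at least 2-fold. The list shares Ihh with the hedgehog genes, Panx3 with the mineralization genes, Mmp13 with the proteases and Vegfa with the osteoclast and vessel genes. It shares Pth1r with the osteoblast and cartilage lists and with that of FGF, PTHrP and IGF genes. Sgms2, a sphingomyelin synthase, had 603.6 and 565.1 against 56.3 and 54.7 CPM (3.54 ± 0.05), Mef2c, a MADS-box factor, 859.3 and 802.8 against 164.8 and 172.1 (2.44 ± 0.04), and Mmp13, a collagenase, 87.1 and 81.6 against 14.8 and 15 (2.64 ± 0.07). Its level was uneven among the chosen cells, with 151.4 and 201.4 CPM in those with 1 to 3 Ifitm5 UMIs and 2.34 and 14.4 in those with 50 or more, no higher than in the other cells. Runx3 (2.20 ± 0.09), the channel gene Panx3 (1.85 ± 0.05) and Vegfa (1.09 ± 0.06) were higher as well. Col10a1, the defining hypertrophic collagen, overlapped between the classes, with 120.5 and 61.9 CPM against 130 and 88.9. Among the chosen cells it was uneven, with 929.8 and 262.6 CPM in those with exactly 1 Ifitm5 UMI and 11.4 and 22.3 CPM in the 99 and 155 with 10 or more Ifitm5 UMIs. With no limit on Ifitm5, where the Ibsp cells without it join the class, the log2 fold change was 2.83. The ligand gene Ihh overlapped too, with 52.1 and 24.8 against 26.0 and 27.4 CPM, and its call of a rise was lost with DESeq2 (adjusted p = 0.53). Of the 22 genes of growth plate cartilage, 19 were lower and 2 higher, but only 2 fell by at least 2-fold, and the median was -0.73. Hapln1, the link protein of aggrecan, had 427.6 and 285.2 against 679.2 and 608.1 CPM (-0.74 ± 0.04), Acan 444.6 and 333.0 against 730.3 and 670.9 (-0.72 ± 0.04) and Col2a1 3274.1 and 3311.9 against 5580.3 and 5360.3 (-0.59 ± 0.03). These falls depended on the Ifitm5 limit, because without it the log2 fold changes turned to 1.5, 1.01 and 0.86. The call of Col2a1 was also lost in the fit of 5 classes (adjusted p = 0.090).

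Genes of several signalling pathways differed, beside 16.9% of all tested genes that were higher and 22.1% that were lower. Of the 8 hedgehog genes, 6 were higher and 1 lower, with a median of 1.03. The receptor and feedback gene Ptch1 had 323.7 and 346.0 CPM in the chosen cells against 71.8 and 87.1 (2.22 ± 0.05), the decoy receptor gene Hhip 82.3 and 75.8 against 10.8 and 11.8 (2.94 ± 0.08) and the effector Gli1 21.8 and 19.9 against 4.32 and 5.82 (2.18 ± 0.14), while Gli3, whose protein acts mainly as a repressor, had 14.2 and 12.7 against 35 and 31.4 (-1.16 ± 0.11). Of the 22 WNT genes, 12 were higher and 7 lower. Among the effectors Tcf7 rose from 2.21 and 2.87 in the other cells to 77.4 and 73.1 CPM (5.03 ± 0.11). Of the secreted inhibitors in the list, Dkk1, Notum, Wif1, Sfrp4 and Sost were higher and Dkk2, Sfrp1 and Frzb lower, with Dkk1 at 44.9 and 46.3 against 1.40 and 2.46 CPM (4.73 ± 0.15), Notum at 29.1 and 26.7 against 1.87 and 3.57 (3.54 ± 0.15) and Wif1 at 74.1 and 73.6 against 12.4 and 14.2 (2.61 ± 0.08). The ligand gene Wnt10b had 9.01 and 9.15 against 0.883 and 0.869 CPM (3.52 ± 0.26), and the agonist gene Rspo3 was lower at 49.5 and 42.8 against 223.3 and 227.5 CPM (-2.16 ± 0.06).

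Of the 19 BMP genes, 4 were higher and 10 lower, where 16.9% of all tested genes were higher and 22.1% lower. The number of higher BMP genes was thus near the share over all genes, and the genes named here are single members. The ligand genes Bmp8a (22.2 and 15.2 against 0.975 and 0.944 CPM, 4.4 ± 0.21), Bmp3 (47.6 and 55.6 against 7.55 and 8.82, 2.80 ± 0.10) and Bmp2 (37.6 and 35.2 against 7.17 and 7.38, 2.46 ± 0.11) were higher, and so was the antagonist gene Nog (0.91 ± 0.07). The target genes Id1 (76.0 and 66.3 against 181.1 and 186.5 CPM, -1.24 ± 0.06) and Id3 (-0.55 ± 0.04) and the antagonist gene Grem1 (-2.34 ± 0.12) were lower. Of the 16 FGF, PTHrP and IGF genes, 3 were higher and 11 lower, among them the IGF-binding protein gene Igfbp5 at 331.7 and 219.3 against 1143.6 and 1049.7 CPM (-1.88 ± 0.04), Igf1 at 9.53 and 25.8 against 97.1 and 89.2 (-2.15 ± 0.09) and the FGF feedback gene Dusp6 at 5.02 and 7.64 against 24.6 and 23.2 (-1.71 ± 0.14). Of the 10 genes that act on osteoclasts and vessels, 2 were higher and 8 lower. Tnfrsf11b, the decoy receptor osteoprotegerin, had 133.0 and 117.1 against 20.9 and 20.3 CPM (2.74 ± 0.06), whereas its ligand gene Tnfsf11 had 1.39 and 1.97 against 4.03 and 4.0 CPM (-1.07 ± 0.29), a call that DESeq2 did not make (adjusted p = 0.10). Of the 14 matrix protease genes and their inhibitors, 4 were higher and 7 lower, with Mmp13 the highest.

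Beside Hs3st6, 18 heparan sulfate genes were tested, of which 11 were lower and 7 did not pass. The 6-O-sulfotransferase gene Hs6st2 had 24.9 and 21.4 CPM against 105.4 and 97.3 (-1.99 ± 0.08), and the sulfatase genes Sulf1 and Sulf2, which remove 6-O-sulfate, had 11.3 and 14.0 against 58.6 and 52.4 (-1.95 ± 0.10) and 13.5 and 14.6 against 39.3 and 32.8 CPM (-1.18 ± 0.10). Of the 24 secretory pathway genes, 17 were higher and 2 lower, but only 3 by at least 2-fold, with a median of 0.22. These 3 were Creb3l1, a factor of collagen secretion in osteoblasts, at 452.4 and 405.0 against 76.9 and 66.8 CPM (2.72 ± 0.05), and the collagen prolyl hydroxylase genes P4ha2 at 410.8 and 388.1 against 145.3 and 137.1 (1.64 ± 0.05) and P4ha1 at 636.5 and 700.2 against 258.2 and 269.0 (1.49 ± 0.04). Of the 16 hypoxia and glycolysis genes, 12 were higher and 2 lower. Ankrd37 had 86.9 and 85.0 against 12.7 and 13.2 CPM (2.87 ± 0.08) and Ndrg1 74.1 and 70.3 against 13.5 and 14.4 (2.51 ± 0.08), while the lactate dehydrogenase gene Ldha had 1746.6 and 1755.1 against 1042.7 and 1063.5 (0.88 ± 0.03). The regulator Hif1a was itself lower, at 77.1 and 65.4 against 124.2 and 118.2 CPM (-0.63 ± 0.06).

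Of the 14 genes of cell division, 5 were higher than in the other cells and 2 lower, none by 2-fold, and Mki67 had 60.3 and 47.8 against 45.2 and 50.9 CPM, higher in replicate A and lower in replicate B. Of 7 genes of cell cycle exit, 2 were higher and 4 lower. The inhibitor gene Cdkn1a had 996.3 and 1089.8 against 413.5 and 447.8 CPM (1.42 ± 0.04), and Cdkn2a 18.4 and 20.6 against 104.7 and 110.9 (-2.32 ± 0.08). Immediate early genes that respond to dissociation moved with the class, with 7 of 12 higher and 2 lower. Fos had 329.9 and 404.9 against 316.0 and 327.5 CPM (0.33 ± 0.04) and Atf3 67.4 and 62.3 against 23.2 and 23.3 (1.62 ± 0.07). The 12 genes summed to 1563.2 and 1827.4 against 1443.9 and 1494.9 CPM. Their part in the results was not tested.

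Genes of joint, contractile and tendon lists were among the lower genes. Prg4 had 1.56 and 2.08 CPM in the chosen cells against 60.3 and 60.8 (-4.87 ± 0.15), and 4 of the 5 articular and joint genes tested were lower, all by at least 2-fold. All 7 contractile genes were lower, 6 by at least 2-fold, with Acta2 at 302.7 and 517.1 against 2415.6 and 2335.2 CPM (-2.42 ± 0.04), Tagln at 144.3 and 361.0 against 1748.3 and 1768.6 (-2.72 ± 0.04) and Actg2 at 10.7 and 16.1 against 130.9 and 143.3 (-3.17 ± 0.09). Replicate A was the lower in each of these. Of the 6 tendon genes tested, 2 were higher and 4 lower, with Tnmd at 27.9 and 24.9 CPM in the other cells (-3.09 ± 0.17) and the tendon factor Scx at 8.31 and 12.3 against 65.3 and 61.8 CPM (-2.43 ± 0.10). Of the 12 perichondrium and fibrous genes, 2 were higher and 9 lower, with the fibrillin gene Fbn2 at 52.3 and 55.9 against 229.2 and 205.6 CPM (-1.85 ± 0.06) and Postn at 103.9 and 119.0 against 357.9 and 317.0 (-1.44 ± 0.05), and Lum higher at 244.2 and 263.2 against 169.1 and 177.3 (0.69 ± 0.05). Ankrd1, Cxcl2, Mfap5, Cavin2, Lmod1, Pappa and Akap12 completed the 10 lowest genes with a mean of at least 20 CPM in the higher class, with log2 fold changes from -3.75 to -3.0. Of the 11 macrophage and osteoclast markers tested, 10 were lower, and of the endothelial and muscle markers 2 of 3 and 3 of 6 were lower.

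**Figure D3:**
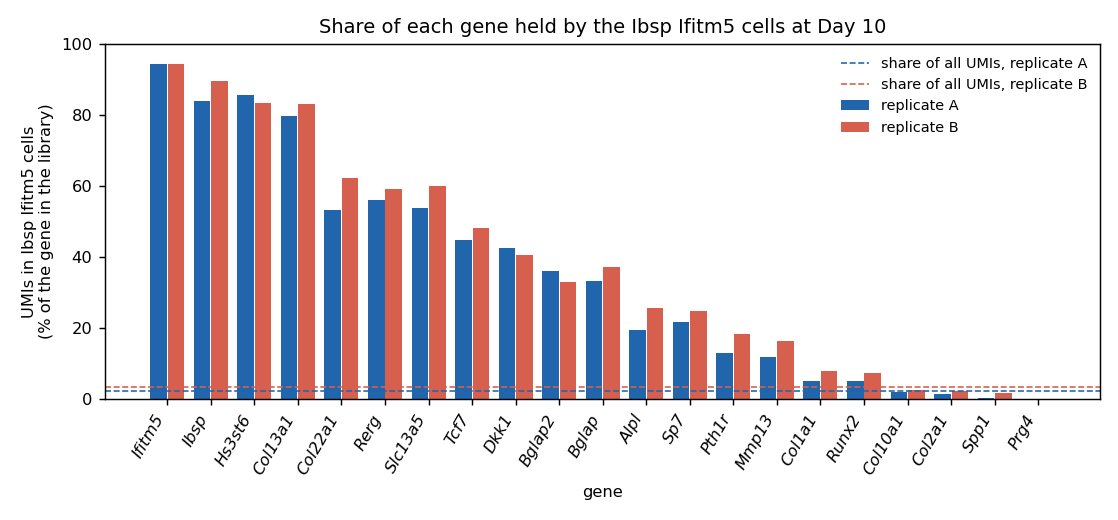
Percent of all UMIs of a gene in each Day 10 library that lay in the chosen cells, with blue bars for replicate A and red bars for replicate B, on a linear axis from 0. Dashed lines mark the share of all UMIs held by these cells (2.27% and 3.51%), which 17 of the 21 genes exceed in both replicates.

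The chosen cells held 2.27% and 3.51% of all UMIs of their libraries. They held 94.3% and 94.5% of the Ifitm5 UMIs and 84.0% and 89.7% of the Ibsp UMIs, the genes of the rule. Of the genes the rule did not read, they held 85.6% and 83.5% of Hs3st6, 79.6% and 83.2% of Col13a1, 53.8% and 59.9% of Slc13a5 and 53.2% and 62.4% of Col22a1. The general osteoblast genes were spread more widely, with 19.4% and 25.6% of Alpl, 21.8% and 24.8% of Sp7 and 5.09% and 7.84% of Col1a1 in these cells. Of Spp1 they held 0.410% and 1.68%.

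The next comparison set them against the cells that met the Ibsp limit but had no Ifitm5 UMI, 138 and 146 cells with median depths of 40783.5 and 37170.5 UMIs. The cells without Ifitm5 held more of the cartilage genes Col10a1, Col2a1, Acan and Hapln1 than the chosen cells, which in turn held more of the collagen I genes, Hs3st6 and Col13a1. Ibsp was also lower in them, at 2879.3 and 2469.3 CPM, so that the chosen cells had 6.54-fold and 7.77-fold more, and this difference in Ibsp cannot be told apart from that in Ifitm5. In a fit of the 5 classes of cells (the chosen cells, these cells, Col10a1-high, Col1a1-high and the rest), 1375 of 12940 genes were higher in the chosen cells (10.6%) and 1398 lower (10.8%) at an adjusted p under 0.05 by edgeR's quasi-likelihood test, 428 (3.31%) and 563 (4.35%) of them by at least 2-fold.

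Of the 22 growth plate cartilage genes, 20 were lower in the chosen cells, 18 by at least 2-fold, and 0 were higher, with a median log2 fold change of -1.88 against 0.01 over all genes tested. Col2a1 had 3274.1 and 3311.9 CPM in the chosen cells against 16485.1 and 13958.9 in the Ibsp cells without Ifitm5 (-2.15 ± 0.21), Hapln1 427.6 and 285.2 against 3342.0 and 2592.0 (-3.03 ± 0.16), Acan 444.6 and 333.0 against 2599.9 and 1928.3 (-2.50 ± 0.17) and Snorc, a cartilage proteoglycan, 274.7 and 395.2 against 2820.0 and 2375.3 (-2.91 ± 0.23). Matn3 (-2.71 ± 0.18), Comp (-2.40 ± 0.18) and Fgfr3 (-1.85 ± 0.15) followed the same direction in both libraries. Of the 13 hypertrophic genes, 6 were lower and 4 higher. Col10a1 had 120.5 and 61.9 against 1473.7 and 812.8 CPM (-3.62 ± 0.19) and Ihh 52.1 and 24.8 against 171.1 and 153.4 (-2.10 ± 0.25). Mmp13 had 87.1 and 81.6 against 232.4 and 109.7 CPM (-0.97 ± 0.28), a difference that DESeq2 did not call (adjusted p = 0.14). Fxyd3, an ion transport regulator, fell furthest among the ranked genes, at 7.62 and 5.79 against 91.7 and 98.2 CPM (-3.81 ± 0.17), and Arsi, Atp6v0a4, F5, Fam89a and Parm1 ranged from -3.41 to -2.95. The cell cycle inhibitor gene Cdkn1c had 563.7 and 638.5 against 2160.7 and 2203.7 CPM (-1.82 ± 0.19), and Bmp6, a ligand gene of hypertrophic cartilage, 1.73 and 1.62 against 19.6 and 11 (-3.09 ± 0.37).

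On the bone side, 9 of the 17 matrix genes were higher in the chosen cells and 4 lower. Col1a1 had 7517.0 and 6622.6 against 1757.0 and 1637.3 CPM (2.10 ± 0.15), Col1a2 7241.9 and 6773.4 against 2355.8 and 2296.5 (1.63 ± 0.15) and Col22a1 50.1 and 45.4 against 1.74 and 2.91 (4.4 ± 0.24). Spp1 (-1.43 ± 0.30), Mgp (-1.73 ± 0.13) and Omd (-1.43 ± 0.22) were lower, with Spp1 at 1360.2 and 1236.5 CPM in the cells without Ifitm5. Hs3st6 had 75 and 72.6 against 3.13 and 2.74 CPM, 24.0-fold and 26.5-fold higher. Rerg had 21.6 and 18.6 against 0.695 and 0.171 CPM (5.57 ± 0.41), Mamdc2 43.1 and 35.7 against 0.869 and 0.857 (5.54 ± 0.27) and Col13a1 92.5 and 104.7 against 9.21 and 4.80 (3.86 ± 0.25). Rasgrp2, Gm41724 and Dkk1 also stood among the 8 highest, from 4.92 to 4.01. Leaving out Hs3st6, the adjusted p-values of these and of the lowest genes were all at or under 4.0e-05.

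The osteoblast regulators split between the kinds of Ibsp cells. Of 11, 5 were higher in the chosen cells, 2 lower and 4 did not pass. Dlx3 had 21.0 and 20.7 against 4.34 and 2.91 CPM (2.57 ± 0.24) and Sp7 191.4 and 152.5 against 69.7 and 68.9 (1.34 ± 0.15). Runx2 did not pass, with 127.3 and 122.6 against 120.2 and 128.1 CPM (0.05 ± 0.08), and neither did Pth1r, with 1103.9 and 1077.0 against 1124.8 and 907.2 (0.15 ± 0.14), or Bglap2, with 136.0 and 86.4 against 105.8 and 76.5 (0.31 ± 0.21). Alpl was higher by less than 2-fold (718.5 and 701.9 against 537.0 and 462.2 CPM, 0.55 ± 0.13), and Smpd3 had 862.1 and 1099.4 against 510.7 and 500.8 (1.0 ± 0.19). Hedgehog targets were higher although the ligand gene was lower, with 4 of 7 genes higher and 1, Ihh, lower. Ptch1 had 323.7 and 346.0 against 123.3 and 151.4 CPM (1.33 ± 0.11), Gli1 21.8 and 19.9 against 5.04 and 4.97 (2.09 ± 0.21) and Hhip 82.3 and 75.8 against 17.9 and 17.1 (2.21 ± 0.11). Tcf7 (77.4 and 73.1 against 14.4 and 16.5 CPM, 2.33 ± 0.15), Creb3l1 (452.4 and 405.0 against 88.9 and 84.9, 2.34 ± 0.08), Tnfrsf11b (133.0 and 117.1 against 34.4 and 36.0, 1.87 ± 0.09) and the lysyl oxidase gene Lox (318.1 and 297.2 against 171.5 and 110.7, 1.19 ± 0.13) were higher in both libraries.

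Genes of cell division were higher in the chosen cells than in the Ibsp cells without Ifitm5, 13 of 14 by the test and 7 by at least 2-fold, with a median of 0.99. Mki67 had 60.3 and 47.8 against 22.6 and 30.5 CPM (1.06 ± 0.21), Top2a 130.4 and 91.8 against 47.6 and 68.4 (0.98 ± 0.21) and Aurka 19.7 and 15.4 against 3.82 and 8.40 (1.54 ± 0.26). With the Ibsp limit raised to 50 UMIs these calls were lost, with adjusted p-values of 0.13, 0.16 and 0.055. The chosen cells with 50 or more Ifitm5 UMIs had Mki67 at 9.96 and 13.0 CPM and Top2a at 31.7 and 38.1, below the cells without Ifitm5. In the same comparison, the calls of Dlx3, Rerg, Bmp6 and Aurka were lost when cells were thinned to 3000 UMIs, with log2 fold changes of 2.34, 3.88, -3.98 and 1.39 and adjusted p-values of 0.081, 0.057, 0.054 and 0.29 by edgeR.

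**Figure D4:**
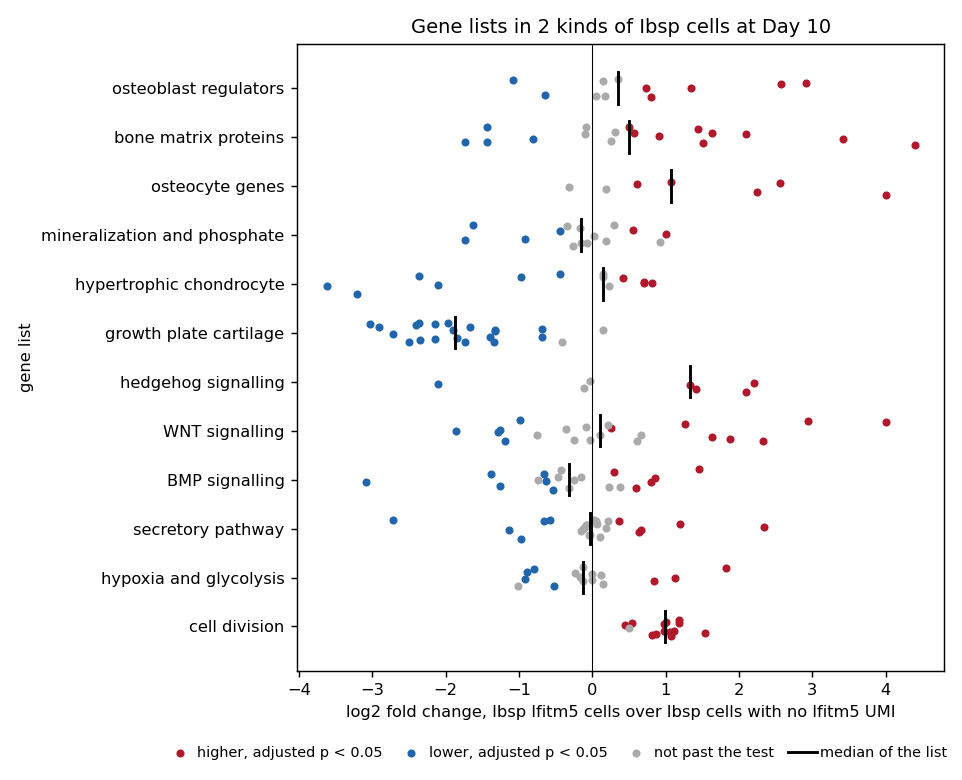
Log2 fold change of each tested gene of 12 gene lists (rows, points shifted at random within a row) in the chosen cells over the Ibsp cells with no Ifitm5 UMI, colored by the edgeR call, with the list median as a black bar. Cartilage genes lie at the left (median -1.88), and hedgehog (1.33) and cell division genes (0.99) at the right.

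The members were not uniform, and their levels were ordered along Ifitm5. Among the cells with at least 20 Ibsp UMIs, 38 and 54 cells had 1 to 3 Ifitm5 UMIs, 36 and 62 had 4 to 19, 43 and 61 had 20 to 49 and 41 and 58 had 50 or more. Ifitm5 set these bands, so the values that follow are a description without a test, and median depth lay between 29504.5 and 40783.5 UMIs in all bands. Col10a1 went from 1473.7 and 812.8 CPM in the cells without Ifitm5 to 451.2 and 200.3 at 1 to 3 UMIs and to 36.5 and 30.2 at 4 to 19 UMIs, and stood at 11.1 and 3.14 at 50 or more. Col2a1 went from 16485.1 and 13958.9 through 5905.4 and 5956.5 to 2075.0 and 1565.5 CPM in the top band. The cells with 1 to 3 Ifitm5 UMIs therefore lay between the cells without Ifitm5 and the higher bands for cartilage genes. The chosen cells with exactly 1 Ifitm5 UMI had 929.8 and 262.6 CPM of Col10a1 and 9515.3 and 7198.8 of Col2a1.

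Several bone genes were ordered the other way. Hs3st6 had 15.4 and 17.4 CPM at 1 to 3 Ifitm5 UMIs, 59.3 and 43.6 at 4 to 19, 101.6 and 100.4 at 20 to 49 and 107.9 and 122.0 at 50 or more. Col22a1 was confined to the upper bands, with 2.19 and 3.70 CPM at 1 to 3 UMIs and 104.3 and 118.9 at 50 or more, and Col1a1 went from 3928.9 and 3738.6 to 9667.4 and 10519.3 CPM. Col13a1 and Dkk1 took the same order in both libraries. Not every bone gene did so. Runx2 was highest at 1 to 3 UMIs, with 169.6 and 151.7 CPM, and lowest at 50 or more, with 82.1 and 74.9. Bglap2 at 50 or more differed between the libraries, with 189.9 and 35.9 CPM. Bglap went from 62.9 and 101.5 CPM at 1 to 3 UMIs to 79.1 and 24.7 at 50 or more. Between the same bands Mgp went from 1041.3 and 1140.7 to 240.3 and 234.6 CPM, and Spp1 from 350.3 and 523.8 to 102.6 and 466.1. Mmp13 went from 151.4 and 201.4 CPM at 1 to 3 UMIs to 2.34 and 14.4 at 50 or more, and Mki67 stood at 117.7 and 68.2 at 1 to 3, 85.8 and 78.6 at 4 to 19 and 9.96 and 13.0 CPM at 50 or more, while Cdkn1a went from 536.7 and 883.8 to 1420.3 and 1543.5 CPM.

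**Figure D5:**
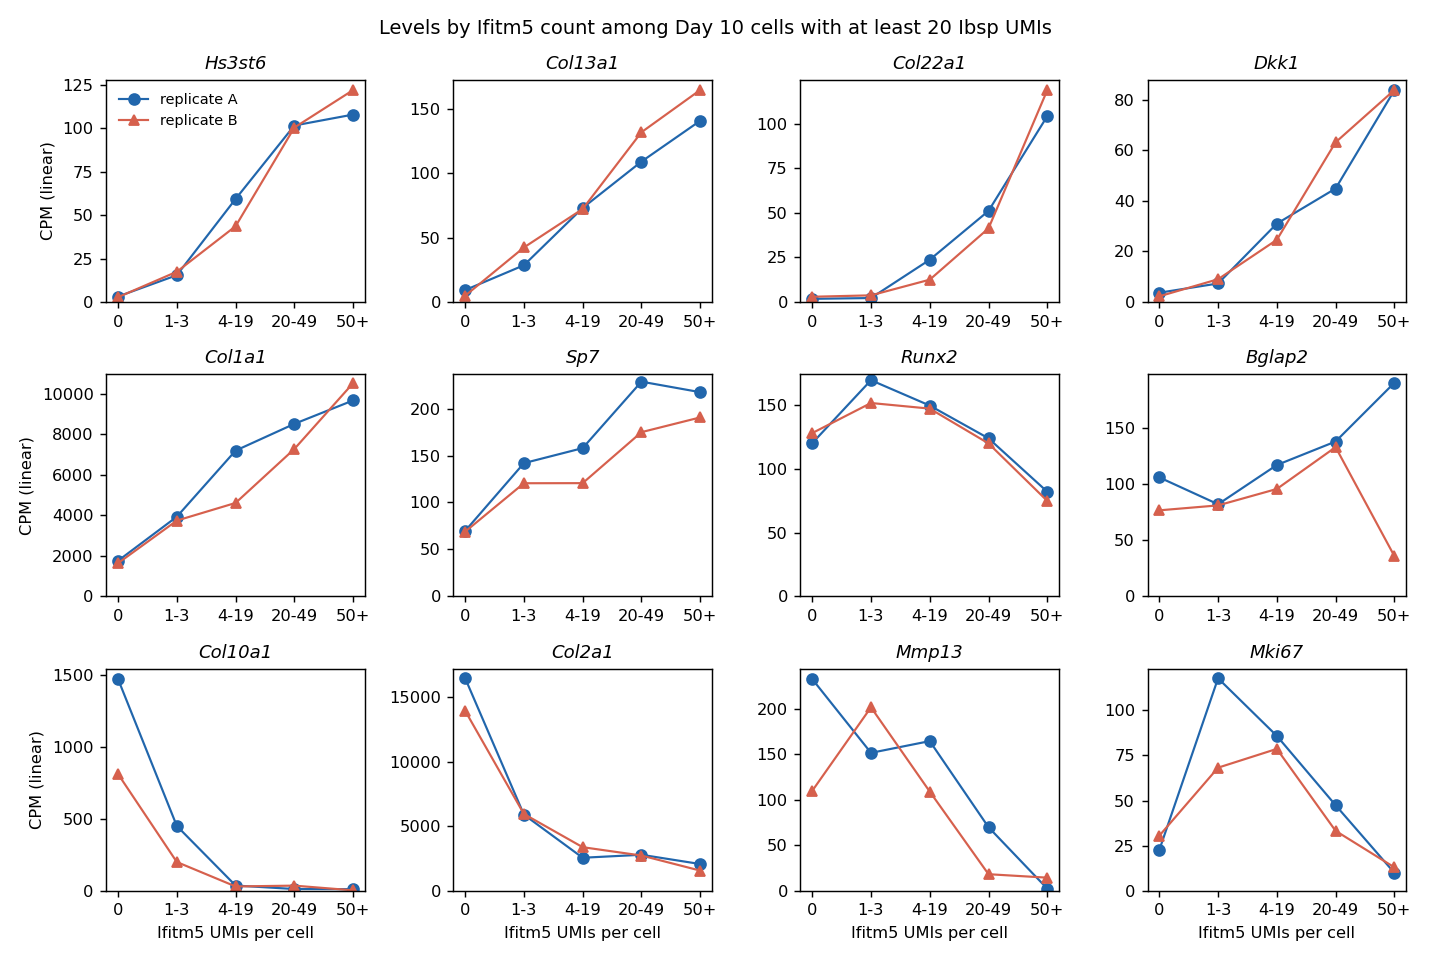
Level in CPM (linear axis from 0) of 12 genes by Ifitm5 UMIs per cell, among Day 10 cells with at least 20 Ibsp UMIs, with circles for replicate A and triangles for replicate B. The band at 0 holds cells outside the rule, and from it to the top band Col10a1 goes from 1473.7 and 812.8 to 11.1 and 3.14 CPM while Col1a1 goes from 1757.0 and 1637.3 to 9667.4 and 10519.3 CPM.

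A Col10a1 UMI was found in 58 of the 158 and 45 of the 235 chosen cells. These are 36.7% and 19.1%, against 21.0% and 18.7% of the Tnmd cells, so that in replicate B the share was at background and a Col10a1 UMI there cannot be read as expression. The cells with and without such a UMI were compared with this limit. By edgeR's quasi-likelihood test, 34 of 10073 genes were higher (0.338%) and 10 lower (0.0993%) at an adjusted p under 0.05, 19 (0.189%) and 3 (0.0298%) of them by at least 2-fold, and 13 of the 22 growth plate cartilage genes were among the higher, with a median of 0.77 against 0.00 over all genes. Hapln1 had 757.5 and 563.2 CPM in the cells with a Col10a1 UMI against 213.0 and 207.8 in those without (1.62 ± 0.10), Acan 665.6 and 617.5 against 300.7 and 253.8 (1.2 ± 0.08), Matn3 67.7 and 64.4 against 16.0 and 25.2 (1.65 ± 0.18) and Col2a1 4453.4 and 5833.1 against 2506.8 and 2610.3 (0.98 ± 0.09). Of the lower genes, Dqx1 had 2.20 and 4.25 against 20.6 and 22.1 CPM (-2.76 ± 0.32), Ptprz1 48.8 and 44.1 against 114.6 and 84.1 (-1.11 ± 0.13) and the small heat shock gene Cryab 76.9 and 61.2 against 158.1 and 124.3 (-1.05 ± 0.11). None of the 11 osteoblast regulators passed the test here, with Sp7 at 175.7 and 127.6 against 201.5 and 159.4 CPM (-0.27 ± 0.09). These calls were unstable. With the Ibsp limit at 50 UMIs those of Dqx1, Ptprz1, Col2a1 and Acan were lost (adjusted p = 1.0, 0.087, 0.25 and 0.055 by edgeR), and with cells thinned to 3000 UMIs those of Matn3 and Cryab (0.77 and 0.12). All of these genes kept their direction. At the limit of 50 the log2 fold changes of Dqx1, Ptprz1, Col2a1 and Acan were -1.82, -1.06, 0.93 and 1.17. Thinned, those of Matn3 and Cryab were 1.16 and -1.16. At the limit of 50, only 4 genes were higher and 1 lower, and without a filter on low counts 123 were higher and 69 lower.

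The Col10a1-high cells were the top 5% of the remaining cells by their Col10a1 share (403 and 399 cells). Against them, the chosen cells again held more of most osteoblast regulators and bone matrix genes. The Col10a1-high cells had fewer than 20 Ibsp UMIs by construction, and their Ibsp stood at 38 and 31.9 CPM. Of 12939 genes tested with edgeR's quasi-likelihood test, 2419 were higher in the chosen cells (18.7%) and 2753 lower (21.3%), 558 (4.31%) and 1214 (9.38%) of them by at least 2-fold, and 9 of the 11 osteoblast regulators and 11 of the 17 bone matrix genes were among the higher. Hs3st6 had 75 and 72.6 CPM against 0 in replicate A and 0.269 in replicate B. Bglap had 87.1 and 64.6 against 0.746 and 0.898 CPM (6.73 ± 0.32). The Ibsp cells without Ifitm5 also stood above the Col10a1-high cells, with Bglap at 65.5 and 39.8 CPM. Between the chosen cells and the Ibsp cells without Ifitm5, Bglap differed by only 0.57 ± 0.18. That call was lost with DESeq2 (adjusted p = 0.13) and with cells thinned to 3000 UMIs (adjusted p = 0.23 by edgeR). Ptch1 had 323.7 and 346.0 against 78.2 and 70.3 (2.38 ± 0.12) and Mmp13 87.1 and 81.6 against 33.4 and 29.3 (1.64 ± 0.30). The chosen cells with 50 or more Ifitm5 UMIs were below these Mmp13 levels. Of the 22 cartilage genes, 18 were lower and 3 higher, with Hapln1 at 1822.6 and 1077.2 CPM in the Col10a1-high cells (-1.80 ± 0.16). The lowest ranked genes were Msx2 (3.12 and 2.55 against 32 and 42.6 CPM, -3.54 ± 0.19) and the matricellular gene Ccn5 (18 and 17.5 against 191.1 and 222.5, -3.33 ± 0.12), followed by Clec14a, Lhx9, Ly6a, Parm1, Cav1 and Sod3 from -3.09 to -2.78.

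Against the Col1a1-high cells, an equal number of the cells left, chosen by their Col1a1 share, depth and RNA quality differed with the class. The Col1a1-high cells had a median of 6946 and 6948 UMIs and 18.6% and 17.1% mitochondrial UMIs, against 3.17% and 2.77% in the chosen cells, and the part of this in the result was not tested. By edgeR's quasi-likelihood test, 4179 of 12939 genes were higher in the chosen cells (32.3%) and 4056 lower (31.3%), 2215 (17.1%) and 2081 (16.1%) of them by at least 2-fold. The same bone genes led, with Slc13a5 at 205.4 and 187.2 against 3.38 and 5.10 CPM (6.03 ± 0.16), Col13a1 at 92.5 and 104.7 against 1.13 and 2.55 (6.23 ± 0.35) and Bglap2 at 136.0 and 86.4 against 3.94 and 2.04 (5.72 ± 0.40). Hs3st6 had 0 UMIs in the Col1a1-high cells of both libraries, so that the chosen cells were at least 88.7-fold and 95-fold higher against a floor of 3 UMIs per library. Cartilage genes were higher here, 16 of 22 against 5 lower, and 11 of the 12 perichondrium and fibrous genes were lower. Prg4 (1.56 and 2.08 against 77.2 and 76.2 CPM, -4.86 ± 0.40) and Thbs4 (3.12 and 2.32 against 63.7 and 89.7, -4.35 ± 0.31) fell furthest. Col1a1, which chose the class, was 0.414-fold and 0.503-fold in the chosen cells.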

How the data were processed

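Per the labels and the study's methods, the authors made 10x Genomics 3' gene expression libraries, aligned the reads to GRCm38 with Cell Ranger 6.1.2 and STAR, and deposited UMI counts per gene and barcode, with no normalization. Seurat 4.1.0 is named in the submitters' processing notes for later steps. Per library, 11518 to 20188 barcodes were deposited and 8350 to 9742 cells passed the filter, and counts bound precision. The members, gene lists (26 lists, 318 genes) and tests were chosen with earlier results of these data known. UMIs were summed per class and Day 10 library and tested with edgeR 4.0.16 (filterByExpr, TMM, quasi-likelihood, library as covariate) over all genes, with Benjamini-Hochberg adjustment and Ibsp and Ifitm5 left out. TMM factors lay between 0.868 and 1.3, and CPM in the text carry none. The A minus B deviations of paired classes correlated at 0.136 to 0.444. Both sums of a pair come from 1 culture, so the library was kept as a block. Named genes were, per comparison, the 15 highest and 10 lowest (8 and 8 for the others) among calls with a mean of at least 20 CPM in the higher class and no overlap between libraries, plus genes of the lists. The same code was tested on simulated data, where it found 90% of genes changed 2-fold in the first comparison and 77% in that of cells with and without a Col10a1 UMI. It made 13 and 10 false calls there. Only genes with at least 20 CPM were changed, all genes had the same dispersion, and there was no library effect. These rates therefore do not carry over to genes under 20 CPM, or to genes whose spread differs from that of the others. A spread pooled over genes was right by design in the simulation, so its false calls cannot show how well pooling served the real data. Ibsp and Ifitm5 are reported as levels. Hs3st6 was in the fits, and its levels and folds are given without a test. Doublets were not called, and leaving out the 10% deepest cells was an alternative. Other alternatives were no block, DESeq2 1.42.0, no low-count filter, other limits on Ibsp and Ifitm5, the depth range of the members, thinning to 3000 UMIs and the study's cell filter. R 4.3.3, Python 3.11.15 and scipy 1.17.1 were used. Gene positions came from GENCODE annotation of GRCm38, in which all 369 genes looked up were matched by identifier. Protein sequences were not used here, and 1 gene selected by the rule for named genes is not reported here.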

Additional observations from a re-analysis of the deposited data

How the results depend on the processing

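The library was kept as a block because both sums of a pair come from 1 culture. Without the replicate block, 2538 genes were higher and 3379 lower against all other cells and 1189 and 1254 against the Ibsp cells with no Ifitm5 UMI. For the split by Col10a1 the lower genes went from 10 to 6. Without the block, 10 calls of named genes were lost.

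Against all other cells, DESeq2 called 1834 genes higher and 1883 lower, 959 of the latter by at least 2-fold. With each cell thinned to 3000 UMIs, 948 were higher and 1187 lower, 313 and 788 by at least 2-fold. Thinned, the counts were 942 and 1026 (335 and 719 by at least 2-fold) against the Col10a1-high cells, 2652 and 2204 against the Col1a1-high cells, and 239 and 307 (136 and 229) against the Ibsp cells with no Ifitm5 UMI. Thinning leaves fewer UMIs and fewer genes to test. The split by Col10a1 was least stable. Its higher genes were 14 with DESeq2, 123 with no low-count filter, 4 with the Ibsp limit at 50, 74 without the 10% deepest cells, 11 thinned and 130 with the study's cell filter, and by at least 2-fold these were 8, 55, 4, 41, 6 and 51. Its lower genes were 6 with DESeq2, 69 with no filter, 6 and 1 with the Ibsp limit at 10 and 50, 35 without the deepest cells, 2 thinned and 51 with the study's filter, and by at least 2-fold 16 with no filter, 1 with the limit at 50, 11 without the deepest cells and 6 with the study's filter. The cause was not tested.

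Some log2 fold changes against all other cells changed sign. With no limit on Ifitm5, Col2a1 was at 0.86, Acan at 1.01, Hapln1 at 1.5, Mki67 at -0.11 and Col10a1 at 2.83, where the Ibsp cells with no Ifitm5 UMI join the class. With the Ibsp limit at 50, Mki67 was at -0.06 and Col10a1 at 0.03. Col10a1 was at 2.66 against the rest class, a value fixed by construction, because that class was made by taking out the cells highest in Col10a1, and no direction is read from it. Without replicate A, Ihh was at -0.14, Mki67 at -0.09 and Top2a at -0.06, and without replicate B they were at 1.0, 0.42 and 0.68. The values with a replicate left out are log2 ratios of CPM without TMM factors, unlike the log2 fold changes of the fits. A change of sign this close to no difference is therefore not read as a reversal. Runx2 against the Ibsp cells with no Ifitm5 UMI was at -0.06 with the Ibsp limit at 50 and at -0.08 both without the deepest cells and thinned. The fit against the rest class, the Ifitm5 limit at 10 and the members without a Col10a1 UMI were chosen after seeing the data.

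The mean share of 2.35% of Day 10 cells ranged from 1.89% to 2.81% with either replicate left out. With 1 library per class left, counts of calls could not be given without a replicate. The comparison with Day 7 was not run, because the rule found 0 and 1 cells there. Over the named genes, 2442 alternatives with a test kept the direction and the side of the threshold, 95 lost the call, 6 gained one and 11 changed sign. With a replicate left out, where there is no test and no TMM factor enters, 265 values moved by less than 1 SD, 212 by more, and 3 changed sign.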
